A study of Homo sapiens with 16 samples.

Results

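The 10 genes described here, VIL1, CDX1, CDX2, SI, KRT20, LGALS4, TFF3, GPA33, ISX and CDH17, mark the identity of the intestinal epithelium and its brush border. They were taken by gene symbol from the 60623 genes listed in every library. Polyadenylated RNA of 16 libraries was read by Oxford Nanopore sequencing of PCR-amplified cDNA, 8 from Caco-2, an established line of a human colorectal adenocarcinoma, and 8 from HepG2, an established line of a human hepatocellular carcinoma. Both lines were kept in a microfluidic device, either alone (mono-culture) or in one circuit with the other line (co-culture). In each culture the cells were left without free fatty acids (control) or given FFA, palmitic with oleic acid at a total of 1 mM, which makes 8 groups of 2 libraries. Both lines are tumour-derived, all groups shared the device and the base medium, and the labels gave sampling 1 day after treatment, one of the exposures that the study describes. The study also describes sequencing after a longer exposure. All 16 sample titles begin with LTC, a code that the study does not explain, so the exposure of these libraries is not certain. The extraction note in the labels names myoblasts. The defining myoblast genes MYOD1, MYF5 and MYOG had no read in any library, and 3 of 8 myoblast markers had any read in Caco-2.

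The absorptive cells of the gut carry on their luminal face a brush border, a dense lawn of microvilli built on bundled actin and studded with digestive enzymes. The caudal-type homeobox factors CDX1 and CDX2 establish and keep the intestinal programme, and they bind AT-rich motifs in the promoters of genes such as sucrase-isomaltase. Caco-2 cells are used as an enterocyte model because, at confluence, they polarise and acquire features of small-intestinal cells. Hepatocytes lack this brush border but have villin-bearing microvilli at their bile canaliculi.

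The upstream sequences of SI, KRT20, LGALS4 and GPA33 are shown because these genes were read at a few CPM or less in Caco-2. CDX2 was itself low there, at the same pooled level as KRT20 (3.48 CPM each). The sequences are the 250 bases before the RefSeq start (GRCh38.p14), in the direction of transcription, and all 4 genes lie on the minus strand. Capitals mark ATAAA or its reverse complement TTTAT, the core letters of caudal-type motifs, which are also part of the TATAAA box.
SI, chr3:165078497-165078746: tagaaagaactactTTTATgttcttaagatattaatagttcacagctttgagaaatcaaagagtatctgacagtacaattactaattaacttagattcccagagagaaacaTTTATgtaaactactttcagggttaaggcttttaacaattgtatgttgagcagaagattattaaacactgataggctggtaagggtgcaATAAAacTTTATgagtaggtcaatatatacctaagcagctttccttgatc
KRT20, chr17:40885243-40885492: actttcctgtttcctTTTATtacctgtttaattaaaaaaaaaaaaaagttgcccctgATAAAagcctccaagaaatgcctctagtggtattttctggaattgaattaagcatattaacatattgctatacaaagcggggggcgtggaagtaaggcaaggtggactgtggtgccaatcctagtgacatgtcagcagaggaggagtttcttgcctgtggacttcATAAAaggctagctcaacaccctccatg
LGALS4, chr19:38812946-38813195: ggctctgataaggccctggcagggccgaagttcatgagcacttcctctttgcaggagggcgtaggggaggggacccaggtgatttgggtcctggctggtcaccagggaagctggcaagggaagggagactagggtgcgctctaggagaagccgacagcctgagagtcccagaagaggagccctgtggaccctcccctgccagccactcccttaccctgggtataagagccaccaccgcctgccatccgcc
GPA33, chr1:167090378-167090627: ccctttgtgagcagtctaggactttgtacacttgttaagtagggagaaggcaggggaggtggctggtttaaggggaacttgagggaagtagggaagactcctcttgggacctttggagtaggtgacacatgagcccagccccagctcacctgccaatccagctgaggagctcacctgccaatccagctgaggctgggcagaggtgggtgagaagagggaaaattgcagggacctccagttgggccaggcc

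The SI window held 4 matches, the nearest starting 43 bases before the start site, and the KRT20 window held 3, the nearest at 28 bases. No match lay in the LGALS4 and GPA33 windows, nor in that of ISX, and CDX2 had 2. None of these 6 windows held the full TATAAA on either strand. ATAAA on either strand occurred in 32.7% of 34935 windows of the same length, so a match is common and only describes the letters. RefSeq promoters were matched for 6 of the 10 genes, not for VIL1, CDX1, TFF3 and CDH17.

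Libraries held 353871 to 974654 reads in Caco-2 and 49634 to 1657430 in HepG2. Values are given as CPM, reads assigned to a gene scaled to a library total of 1e+06, and 1 read was worth 0.603 to 20.1 CPM. The HepG2 co-culture FFA libraries were the shallowest, with 147096 and 49634 reads, and every value of that group rests on few reads. Of the 13 hepatocyte markers, 12 were called lower in Caco-2 by limma, against 12.5% of all genes, and TTR was called higher. Caco-2 itself averaged 3552 CPM of APOA1 and 3031 of SERPINA1. Of 11 other intestinal epithelial markers, 8 were higher in every Caco-2 library than in every HepG2 library, against 5.97% of all genes, and 1 was lower in every one. On these lists the libraries separated by their labelled line. The study's methods describe its mRNA-seq experiments as independently repeated, but the labels do not say whether the 2 libraries of a group came from separate cultures, so the p-values below measure the spread between these libraries. The reads of separate runs or days are not marked in the labels.

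Of the 10 genes, 8 had at least 1 read in Caco-2 and 5 in HepG2. In Caco-2, TFF3, VIL1 and CDH17 were read in all 8 libraries, CDX2, KRT20, GPA33, LGALS4 and SI were read at a few CPM, and CDX1 and ISX had no read. In HepG2, only TFF3 and VIL1 were read in all 8 libraries, KRT20, LGALS4 and ISX had 1 read each, and CDX1, CDX2, SI, GPA33 and CDH17 had none. Pooled over its 8 libraries, Caco-2 had TFF3 at 104 CPM, VIL1 at 46.8 and CDH17 at 34.6. KRT20 and CDX2 followed at 3.48 each, then GPA33 (1.43), LGALS4 (1.02) and SI (0.614). HepG2 had TFF3 at 132 CPM and VIL1 at 23.6. The genes from KRT20 down rest on 3 to 17 reads over 8 libraries, and their neighbours in this order do not differ beyond their counting intervals.

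**Figure D1:**
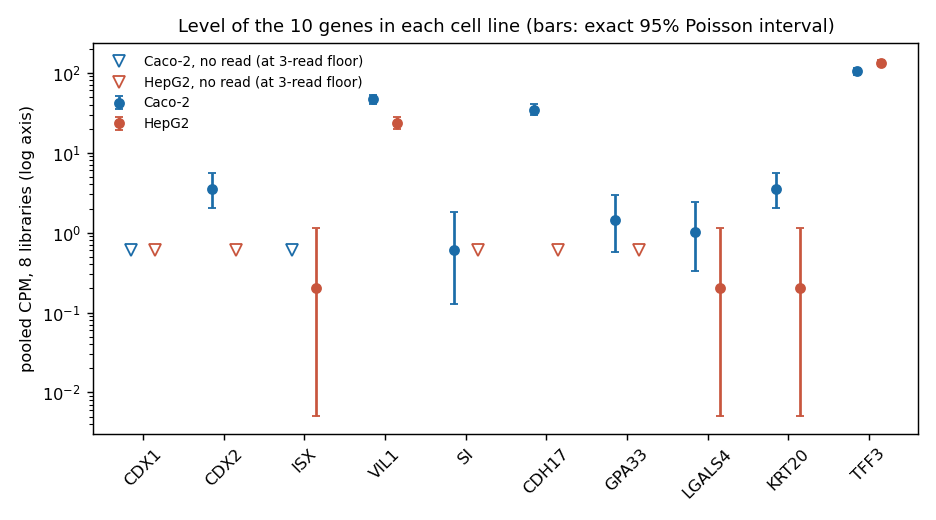
Pooled CPM of the 10 genes over the 8 libraries of Caco-2 (blue) and of HepG2 (red) on a log axis, with exact 95% Poisson intervals that cover counting error only; open triangles stand at the 3-read floor where no read was found. CDH17 is at 34.6 CPM in Caco-2 and at the floor in HepG2, while TFF3 is high in both lines.

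The first comparison asked which of these genes separate the gut line from the liver line. CDH17, VIL1, CDX2, KRT20 and GPA33 were higher in Caco-2, and TFF3 and LGALS4 did not pass the test. By limma with Benjamini-Hochberg adjustment over 17544 genes, 5 of the 7 testable genes were called, all higher in Caco-2, against 30.3% of all genes tested called and 17.9% called higher. The same 5 had an unadjusted p under 0.05, against 40.4%. The median log2 difference was 1.07 for the 7 genes and 0.16 for all genes. CDX1, SI and ISX were not tested, since no group mean reached 1 CPM. TFF3, VIL1 and LGALS4 reached that level in both lines. CDH17, CDX2, KRT20 and GPA33 reached it only in Caco-2, where they are read. Their p-values are drawn in part from the level that admitted them. The count of calls thus describes the choice of genes as well as the lines. The floor for a gene without reads was 3 reads over the 8 libraries, 0.614 CPM in Caco-2 and 0.606 CPM in HepG2.

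CDH17 (ENSG00000079112, chromosome 8, 94127162 to 94217303, minus strand, GRCh38) encodes liver-intestine cadherin, an adhesion protein of the enterocyte's lateral membrane. In Caco-2 it stood at 49.3 and 31.7 CPM in mono-culture control, 49.5 and 43.4 in mono-culture FFA, 45.6 and 22.6 in co-culture control, and 31.8 and 18.5 in co-culture FFA. No HepG2 library had a read. The lines did not overlap, which held for 5.97% of all genes in this direction, and the pooled level was at least 57.1-fold higher in Caco-2. The log2 difference was 5.15 (SE 0.32, limma adjusted p = 2.11e-08), and it was called when any 1 of the 16 libraries was left out.

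VIL1 (ENSG00000127831, chromosome 2, 218419121 to 218453295, plus strand) encodes villin, the actin-bundling protein of microvilli. Caco-2 had 24.6 and 36.4 CPM in mono-culture control, 29.7 and 46.6 in mono-culture FFA, 51.5 and 45.2 in co-culture control, and 68.7 and 48.0 in co-culture FFA. HepG2 had 20.9 and 24.4 CPM in mono-culture control, 18.8 and 14.5 in mono-culture FFA, 21.7 and 22.2 in co-culture control, and 61.2 and 100.7 in co-culture FFA, the last pair from 9 and 5 reads. The lines overlapped only through that shallow HepG2 group, since every other HepG2 library was below every Caco-2 library, the nearest pair being 24.4 and 24.6 CPM. The pooled ratio, in which deeper libraries weigh more, was 1.98 (95% exact binomial interval 1.58 to 2.50, counting error only). With libraries weighted equally, the means were 43.9 CPM in Caco-2 and 35.6 in HepG2. The log2 difference was 0.54 (SE 0.19, limma adjusted p = 0.0457). It rose to 1.02 (SE 0.18, adjusted p = 0.000359) when both libraries of the shallow group were left out, a choice made after the depths were seen. The call was lost in 8 of 16 fits without 1 library, with adjusted p up to 0.0796. USP37, on the opposite strand, overlaps VIL1 and had 42 reads over all 16 libraries, and the strand used in counting is not given in the sources used here.

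The homeobox factors gave little signal. CDX2 (chromosome 13, 27960918 to 27969315, minus strand) was read in 6 of the 8 Caco-2 libraries. The 8 values were 2.7 and 3.5 CPM in mono-culture control, 4.9 and 0 in mono-culture FFA, 4.0 and 0 in co-culture control, and 4.1 and 6.2 in co-culture FFA. HepG2 had no read, so the pooled level in Caco-2 was at least 5.74-fold higher. CDX2 entered the test through Caco-2 alone, so its p-value also describes the choice of the gene. The log2 difference was 1.77 (SE 0.43, limma adjusted p = 0.00609), and it ran from 1.54 to 4.05 over the alternatives. On recovered reads edgeR gave 3.90 (adjusted p = 0.00707), and with DESeq2 the CDX2 call was lost (adjusted p = 0.156). CDX1 (chromosome 5, 150166778 to 150184558, plus strand), the paralogue of CDX2, had no read in 4888029 Caco-2 reads or in 4953377 HepG2 reads. ISX (chromosome 22, 35066136 to 35087387, plus strand), an intestine-specific homeobox factor of vitamin A uptake, had 1 read, in a HepG2 co-culture control library. The depth allows levels up to about the floor for these genes, so their presence below it was not detectable.

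KRT20 (chromosome 17, 40875889 to 40885242, minus strand), the intermediate filament keratin of mature intestinal cells, was read in 7 of 8 Caco-2 libraries. It stood at 2.7 and 2.4 CPM in mono-culture control, 2.5 and 6.4 in mono-culture FFA, 0 and 2.8 in co-culture control, and 6.2 and 2.5 in co-culture FFA. The single HepG2 read fell in a co-culture control library (1.1 CPM). The pooled ratio was 17.2 (95% exact binomial interval 2.7 to 720), and the log2 difference was 1.73 (SE 0.38, limma adjusted p = 0.00316). On recovered reads edgeR gave 3.43 for KRT20 (adjusted p = 0.0312), and with DESeq2 the call was lost (adjusted p = 0.146). GPA33 (chromosome 1, 167052836 to 167166479, minus strand), the A33 surface antigen of the intestinal epithelium, was read in 5 of 8 Caco-2 libraries. It stood at 2.7 and 1.2 CPM in mono-culture control, 0 and 0 in mono-culture FFA, 0 and 5.7 in co-culture control, and 2.0 and 1.2 in co-culture FFA. It had no read in HepG2, and the pooled level was at least 2.36-fold higher in Caco-2 (log2 difference 1.07, SE 0.35, limma adjusted p = 0.0319). The GPA33 call rests on 7 reads, was lost without any 1 of 11 libraries (adjusted p up to 0.0775) and had an adjusted p of 1.00 with edgeR on the recovered reads.

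LGALS4 (chromosome 19, 38801671 to 38812945, minus strand) encodes galectin-4, a lectin of apical membrane sorting. Its 5 Caco-2 reads all came from co-culture, at 2.0 and 0 CPM in control and 3.1 and 1.2 with FFA, and the 4 mono-culture libraries were at 0. One HepG2 mono-culture FFA library had 1 read (2.4 CPM). The pooled line ratio was 5.07 with a 95% exact binomial interval of 0.567 to 240, and the log2 difference of 0.38 (SE 0.31) did not pass (limma adjusted p = 0.386). SI (chromosome 3, 164978898 to 165078496, minus strand), the brush border disaccharidase sucrase-isomaltase, had 3 reads in Caco-2, 1 each in a co-culture control, a co-culture FFA and a mono-culture control library (2.0, 1.0 and 1.2 CPM). It had none in HepG2, and both lines were at or under the floor, so no fold is given.

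TFF3 (ENSG00000160180, chromosome 21, 42311667 to 42315409, minus strand) encodes a trefoil peptide that goblet cells secrete with mucus. Caco-2 had 68.4 and 69.3 CPM in mono-culture control, 86.5 and 67.5 in mono-culture FFA, 107 and 150 in co-culture control, and 146 and 120 in co-culture FFA. HepG2 had 195 and 135 CPM in mono-culture control, 82.4 and 80.0 in mono-culture FFA, 135 and 141 in co-culture control, and 95.2 and 80.6 in co-culture FFA. The levels of the lines overlapped, and TFF3 was the most abundant of the 10 genes by pooled CPM in both. The log2 difference between lines was -0.21 (SE 0.13, limma adjusted p = 0.240), and the pooled ratio was 0.787 (95% exact binomial interval 0.699 to 0.885, counting error only).

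**Figure D2:**
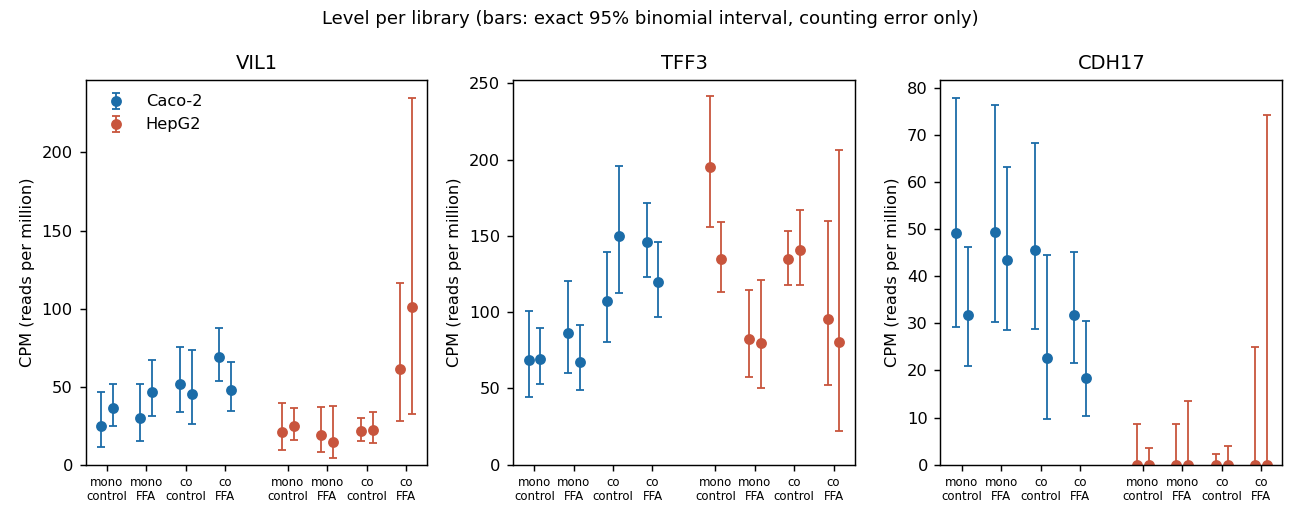
CPM of VIL1, TFF3 and CDH17 in each of the 16 libraries (points, 2 per group) with exact 95% binomial intervals that cover counting error only, Caco-2 in blue and HepG2 in red. TFF3 was between 107 and 150 CPM in the 4 Caco-2 co-culture libraries and between 67.5 and 86.5 in the 4 mono-culture libraries.

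The second comparison asked whether the gut genes of Caco-2 changed when the line shared medium with HepG2. TFF3 rose in co-culture, and no other gene of the 10 passed the test. All 4 co-culture libraries were above all 4 mono-culture libraries, with means of 130 ± 20.6 CPM and 72.9 ± 9.10 CPM (SD, n = 4 each). The log2 change averaged over treatment was 0.82 (SE 0.17, limma adjusted p = 0.0478), beside a median change of 0.14 for all genes. Of the 7 testable genes 1 was called, against 0.453% of the 15454 genes tested and 0.317% called higher, and 1 of 7 did not overlap in the upward direction, against 4.25% of all genes. The TFF3 call is marginal. It was lost without any 1 of the 8 libraries (adjusted p 0.0600 to 0.184) and with DESeq2 on the recovered reads (adjusted p = 0.0789), and the log2 change stayed between 0.70 and 0.94 in the fits without 1 library.

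VIL1 stood at 53.4 ± 10.6 CPM in co-culture and 34.3 ± 9.50 in mono-culture (SD, n = 4 each). The groups overlapped through 1 mono-culture FFA library at 46.6 CPM, and the log2 change of 0.64 (SE 0.23) had a limma adjusted p of 0.311. CDH17 went the other way, at 29.6 ± 12 CPM in co-culture and 43.5 ± 8.31 in mono-culture (SD, n = 4 each). Its log2 change of -0.60 (SE 0.28) did not pass either (limma adjusted p = 0.424). For LGALS4, with reads only in co-culture, the change was 1.19 on that scale (SE 0.52) and also did not pass (limma adjusted p = 0.394). CDX2 (0.21, SE 0.77), GPA33 (0.62, SE 0.68) and KRT20 (-0.44, SE 0.69) had changes smaller than their SE on the log2 scale. At an unadjusted p under 0.05, 4 of the 7 genes passed, TFF3, VIL1, CDH17 and LGALS4, against 11.8% of all genes. LGALS4 reached a mean of 1 CPM only in co-culture FFA (2.16 CPM). Its p-value is thus drawn in part from the level that admitted it, and it adds no support to that count.

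Hepatocyte markers moved with TFF3 in the Caco-2 co-culture libraries. Their summed level was 10660 to 11320 CPM in co-culture and 8145 to 9565 CPM in mono-culture, against 41230 to 82986 CPM in HepG2. Of the 13 markers, 3 rose in Caco-2 co-culture by limma, against 0.317% of all genes called higher. They were AFP (log2 change 0.97, adjusted p = 0.00538), TTR (0.58, adjusted p = 0.0114) and APOA1 (0.38, adjusted p = 0.0226), all of which Caco-2 also expressed alone. As a share of the HepG2 co-culture mean, the highest Caco-2 co-culture library ran from 0.317% for TF and 0.546% for AMBP, over 6.92% for AFP and 8.07% for ALB, to 159% for TTR. The part of these markers in the TFF3 result was not tested. CDH17 had no read in the co-cultured HepG2 libraries.

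Within single treatments no gene of the 10 was called in Caco-2. Co-culture without FFA gave 0 of 7 genes by limma, against 0.0971% of all genes, 1 of 7 at an unadjusted p under 0.05 (TFF3) against 10.3%, and 0 by edgeR and DESeq2. Co-culture with FFA also gave 0 of 7 by limma against 0.0971%, 3 of 7 at an unadjusted p under 0.05 (TFF3, CDH17 and LGALS4) against 7.78%, and 0 by edgeR and DESeq2. Of these, LGALS4 was admitted to the test by its level in co-culture FFA alone. TFF3 was higher in both libraries of co-culture in each treatment, by 0.87 without FFA and 0.78 with FFA on the log2 scale (SE 0.23 each), an absence of overlap that 22% and 20% of all genes showed. VIL1 also separated upward in both treatments, and with FFA GPA33 and LGALS4 did too, while CDH17 separated downward there, as did 14.6% of all genes. GPA33 separated on 2 and 1 reads and LGALS4 on 3 and 1, against no read in mono-culture FFA. The co-culture FFA libraries were also deeper (974654 and 811671 reads, against 404378 and 622280), and the part of depth was not tested.

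The third comparison asked whether FFA changed these genes in the gut line. The 7 testable genes gave no call for FFA in mono-culture (against 0.00647% of all genes), in co-culture (0%) or averaged over culture (0%), and none had an unadjusted p under 0.05, against 5.8%, 4.88% and 4.85% of all genes. Tests by edgeR and DESeq2 gave 0 calls as well. With FFA averaged over culture, the log2 changes were 0.10 (SE 0.17) for TFF3, 0.28 (SE 0.23) for VIL1 and -0.08 (SE 0.28) for CDH17. The largest were 0.94 (SE 0.69) for KRT20 and -0.75 (SE 0.68) for GPA33, each from a few reads. The interaction of FFA and culture gave 0 of 7 (0% of all genes) with none at an unadjusted p under 0.05 (5.02% of all genes) and 0 by edgeR and DESeq2. The test over the 4 groups gave 0 of 7 by limma, against 0.155% of all genes, with TFF3 at an unadjusted p under 0.05 (8.17% of all genes), 1 gene (TFF3) by edgeR and 0 by DESeq2.

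**Figure D3:**
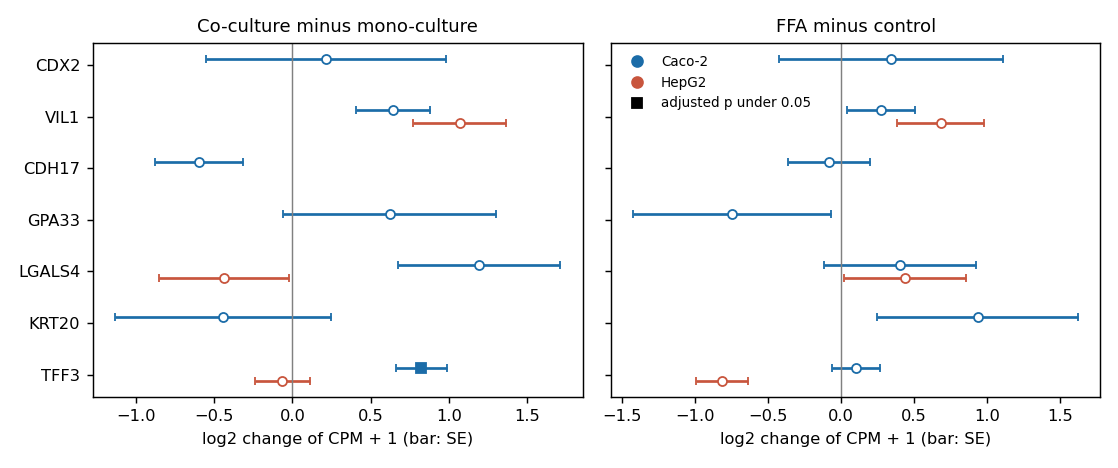
Log2 change of CPM + 1 with its SE for co-culture against mono-culture (left, averaged over treatment) and FFA against control (right, averaged over culture), Caco-2 in blue and HepG2 in red, with filled squares where the limma adjusted p was under 0.05. TFF3 in Caco-2 co-culture is the single filled square, at 0.82, and TFF3 in HepG2 with FFA stands at -0.82, unfilled.

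In HepG2, 3 of the 10 genes could be tested, TFF3, VIL1 and LGALS4, and none was called in any of the 8 tests by limma. TFF3 was lower with FFA in both cultures. The 4 FFA libraries, at 80.0 to 95.2 CPM, were below all 4 control libraries, at 135 to 195 CPM, an absence of overlap in this direction that 3.36% of all genes showed. The log2 change was -0.82 (SE 0.18), and it did not pass by limma (adjusted p = 0.147), against 0.0762% of all genes called. VIL1 also had an unadjusted p under 0.05 there, so 2 of 3 did, against 13.8% of all genes. The call depended on the tool. On the recovered reads, edgeR gave -1.22 with an adjusted p of 6.07e-06 and DESeq2 gave -1.06 with an adjusted p of 0.00306. Within mono-culture, where both FFA libraries were deeper, the log2 change was -0.99 (SE 0.25, limma adjusted p = 0.712), against 0% of all genes called. TFF3 alone had an unadjusted p under 0.05 there, against 6.26%, and edgeR and DESeq2 each called TFF3 there. In co-culture it was -0.65 (SE 0.25, limma adjusted p = 0.287), against 0% of all genes called. TFF3 and VIL1 had an unadjusted p under 0.05 there, against 15.9%, and edgeR called it while DESeq2 did not.

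VIL1 in HepG2 stood apart in 1 group. Co-culture with FFA was at 71.2 CPM pooled over its 14 reads (95% exact Poisson interval 38.9 to 119), against 21.9 in co-culture control (16.6 to 28.4), 23.4 in mono-culture control (16.2 to 32.7) and 17.2 in mono-culture FFA (8.87 to 30.0). The FFA change within co-culture was 1.79 on the log2 scale (SE 0.42, limma adjusted p = 0.149) and the co-culture change with FFA was 2.18 (SE 0.42, limma adjusted p = 0.154). On recovered reads edgeR gave 1.07 for the FFA change within co-culture (adjusted p = 0.424). Neither change passed by limma, against 0% of all genes called in each. With FFA, VIL1 alone had an unadjusted p under 0.05 for co-culture, against 14.7% of all genes, and edgeR and DESeq2 gave 0 calls. The adjusted p for the FFA change fell to 0.00982 without the first of the 2 shallow libraries, which leaves that group with the 1 library of 5 reads, assumed to vary like the others. Depth differed with this group, and its part in the difference was not tested.

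The remaining HepG2 tests gave 0 of 3 genes by limma. These were co-culture without FFA (0% of all genes called), co-culture averaged over treatment (0%), the interaction (0%) and the 4 groups together (0%). At an unadjusted p under 0.05 they gave no gene (against 2.61%), VIL1 (against 7.72%), VIL1 (against 6.94%) and both TFF3 and VIL1 (against 12.2%). With edgeR and DESeq2 these gave 0, except that both called TFF3 over the 4 groups. LGALS4 rested on 1 read in all of them.

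Whether TFF3 responded differently in the lines was tested directly, in contrasts chosen after the data were seen. The co-culture change was 0.89 larger in Caco-2 on the log2 scale (SE 0.25, limma adjusted p = 0.239, against 0.0969% of all genes called and 9.72% at an unadjusted p under 0.05). The FFA change averaged over culture was 0.10 in Caco-2 and -0.82 in HepG2, so it was a fall in HepG2 beside little change in Caco-2. The difference between these changes was 0.92 (SE 0.25, limma adjusted p = 0.165, against 0.0912% and 11.4%), while edgeR and DESeq2 gave adjusted p of 6.21e-05 and 0.00635 for it. A difference between the lines was therefore not established by limma for either factor.

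The other genes of the intestinal programme were read from lists of related genes, whose counts between the lines stand beside 17.9% of all genes called higher in Caco-2 and 12.5% called lower. Of the 15 brush border structure genes, all 15 were testable between the lines, and 8 were higher in Caco-2 and 0 lower. EZR, ezrin, which links microvillar actin to the membrane, averaged 215 CPM in Caco-2 and 45.2 in HepG2, and PDZK1, an apical scaffold protein, averaged 173 and 73.1. Digestive enzymes were sparse, with 5 of 11 testable, 2 higher and 1 lower. DPP4, a brush border peptidase, averaged 84.6 CPM in Caco-2 and 32.6 in HepG2, while ANPEP, aminopeptidase N, averaged 1.87 and 11.3 and was the one called lower. Absorptive transporters were mixed, with 4 of 7 testable genes higher in Caco-2 and 3 lower. SLC46A1, the proton-coupled folate transporter, averaged 24.7 and 14.5 CPM, and SLC51B, a subunit of the bile acid exporter, averaged 14.1 and 4.01. The means of 3 others were lower in Caco-2. SLC51A averaged 0 and 4.10 CPM, SLC2A2 averaged 1.21 and 14.3, and SLC26A3 averaged 3.58 and 13.8.

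Of 10 testable gut and liver transcription factors, 4 were higher in Caco-2 and 0 lower. ELF3, an epithelial ETS factor, averaged 64.3 CPM in Caco-2 and 6.62 in HepG2, and HNF4A, a nuclear receptor of gut and liver, averaged 12.1 and 3.85. The other intestinal epithelial markers were 9 of 11 higher and 1 lower. The most abundant were EPCAM, an adhesion protein of epithelia (884 and 261 CPM), and TSPAN8, a tetraspanin (63.6 and 3.06 CPM). The 1 lower was FABP2, the intestinal fatty acid-binding protein, at 0.248 CPM in Caco-2 and 9.45 in HepG2. It was read in 1 Caco-2 library and in all 8 HepG2 libraries. Of the secretory lineage genes 3 of 5 testable were higher and 0 lower, with AGR2, a disulfide isomerase of mucus-secreting cells, at 848 and 72.9 CPM and TFF1, another trefoil peptide, at 27.1 and 1.46. The goblet cell mucin MUC2, named after its values were seen, had no read in either line. Of the 4 testable intestinal stem cell genes 0 were called by limma, and the highest in Caco-2, AXIN2 and ASCL2, both linked to Wnt signalling, averaged 1.84 and 0.775 CPM. Of the 13 hepatocyte markers 12 were lower in Caco-2 and 1, TTR, was higher.

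None of the testable genes among the 74 of these intestinal lists was called by limma in any comparison of culture or FFA within either line. In Caco-2 co-culture averaged over treatment, 5 of the 15 brush border structure genes had an unadjusted p under 0.05, as did 2 of 6 testable transporters, 1 of 10 other intestinal markers, 1 of 4 secretory genes, 0 of 4 digestive enzymes, 0 of 8 transcription factors and 0 of 3 stem cell genes, beside 11.8% of all genes. The median log2 change of the brush border structure list was 0.40, beside 0.62 for the 7 testable genes of the 10 and 0.14 for all genes. PDZK1 had a value of 0.40 on the log2 scale (SE 0.15, limma adjusted p = 0.327) and EZR of -0.11 (SE 0.12, limma adjusted p = 0.709), neither past the threshold.

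Over the 8 Caco-2 libraries, the genes whose levels ran closest to the mean standardised level of the 7 testable genes were CU638689.4 (Pearson r = 0.946), COG8 (0.940) and PMVK (0.932), out of 6478 candidates. These values describe the same 8 libraries, which share their depth and culture groups.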

How the data were processed

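Nanopore PCR-cDNA libraries of Caco-2 and HepG2 (8 each) were analysed from per-gene tables. Per the labels, the authors aligned reads with minimap2 2.22 to GRCh38. The deposited values are named TPM but behave as CPM: in each library they were whole multiples of the value of 1 read (100% of low values within 0.1 of a step, at least 99.6279% of all values), so whole reads were recovered. Levels were compared as log2(CPM + 1) for genes whose mean reached 1 CPM in any group, using limma 3.58.1 (R 4.3.3) with group means, a trended prior and Benjamini-Hochberg adjustment at 0.05 over all genes tested (15454 in Caco-2, 14430 in HepG2, 17544 in both). edgeR 4.0.16 and DESeq2 1.42.0 were run on recovered reads as alternatives. Scripts were tested on simulated data. Exact intervals and the 3-read floor cover counting error only. Of 60623 identifiers, 60295 matched GENCODE 44. The 10 genes and all lists were chosen with earlier results of these data known. From the lists, genes called in any Caco-2 comparison and the 2 most abundant in Caco-2 were named, and the 3 genes most like the 10 were those with the highest correlation among genes of at least 10 CPM in a Caco-2 group. List genes named for a lower level in Caco-2 were chosen after their values were seen.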

Additional observations from a re-analysis of the deposited data

Results flagged for a closer look

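VIL1 values in HepG2 lay on opposite sides of the controls with FFA in the 2 cultures. Both mono-culture FFA libraries (18.8 and 14.5 CPM, from 8 and 4 reads) were below both mono-culture controls, and both co-culture FFA libraries (61.2 and 100.7 CPM, from 9 and 5 reads) were above both co-culture controls. The mono-culture change was -0.43 on the log2 scale (SE 0.42, limma adjusted p = 0.896), so a fall there was not established. Separation of 2 libraries from 2 was frequent in other comparisons of this series. In Caco-2, 22% and 20% of all genes separated upward for co-culture without and with FFA. The shares for FFA within each HepG2 culture are not given here, so these percentages are not the background of the VIL1 result. The interaction was 2.219 on the log2 scale (SE 0.60, limma adjusted p = 0.676, unadjusted p = 0.00541), so the difference was not established, and the adjusted p ran from 0.0253 to 0.744 over the fits without 1 library. The libraries that were high are the 2 shallowest of the series, and the part of depth was not tested.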

How the results depend on the processing

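At this depth 1 read is worth up to 20.1 CPM, so genes under about 3 reads a group could not be followed. In the alternatives run for VIL1, TFF3, CDH17, CDX2, KRT20 and GPA33, no direction reversed. Calls between the lines numbered 5. They fell to 2 (CDH17 and VIL1) with a minimum of 10 CPM, under which the low genes were no longer tested, and to 2 with DESeq2, which lost CDX2 and KRT20 and gave GPA33 no adjusted p, ranged from 3 to 6 without 1 library, and stayed at 5 without both shallow HepG2 libraries. With quantile normalization GPA33 was lost, and without a filter or with a constant prior VIL1 was lost (adjusted p = 0.0535 and 0.0593). In Caco-2, the co-culture count of 1 (TFF3) fell to 0 with DESeq2, after median-ratio rescaling, under a constant prior and when 0.1 replaced 1 as the pseudocount, and was 0 to 0 without 1 library, and the cause was not tested. For TFF3 the adjusted p there ran from 0.00494 to 0.343 over the alternatives. The test over the 4 Caco-2 groups rose from 0 to 1 with a minimum of 10 CPM, edgeR and the rule of the study (at least 1.2-fold with an unadjusted p under 0.05), which also gave 1 for co-culture without FFA and 1 with FFA and called 1362, 1329 and 1196 of all 15454 genes in these tests. Without 1 library the other Caco-2 counts were 0 to 0. In HepG2, edgeR gave 1 for the 4 groups, FFA in mono-culture, FFA in co-culture and FFA averaged, DESeq2 gave 1 for the first, the second and the last of these, and quantile normalization gave 1 for FFA averaged. Over all 14430 genes, edgeR called 543, 23, 456 and 630 in those tests, DESeq2 338, 31 and 344, and quantile normalization 77. The study's rule gave 2 for the 4 groups, FFA in co-culture and FFA averaged, and 1 for FFA in mono-culture, co-culture with FFA, co-culture averaged and the interaction, while calling 1118 to 2437 of all genes. Without 1 library these HepG2 counts ran from 0 to 1, and from 0 to 2 for FFA averaged. Such calls included KRT20 and LGALS4, which then had a single library with 1 read as a whole group and no spread. TFF3 with FFA in HepG2 passed without the first co-culture FFA library (adjusted p = 0.0244) or the second mono-culture control library (0.0266).

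Deviations of same-numbered libraries had a mean correlation of 0.0120 in Caco-2 and 0.00332 in HepG2 over all genes tested, and of 0.151 (-0.0172 to 0.291) and 0.0529 (-0.103 to 0.121) over genes of at least 100 CPM. Not every pair of groups was above 0.1 and the labels name no shared batch, so the numbers were not taken as pairs. With the replicate block, TFF3 in Caco-2 co-culture stayed called and VIL1 between the lines missed the threshold (log2 difference 0.54, adjusted p = 0.0513), leaving 4 calls there, while the within-line counts were as before.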
